A study of Mus musculus with 6 samples.

Results

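The 9 genes described here were grouped as lipid handling genes of peripheral capillary endothelium: Fabp4, Fabp5, Gpihbp1, Cd36, Cd300lg, Lpl, Plpp1, Plpp2 and Plpp3. They were taken by symbol from the annotation of an Affymetrix 3' array, as every probe set (a group of short probes that reads a transcript) assigned to one of these symbols alone. This gave 20 of the 45037 probe sets tested, for 9 of 18193 named genes. Total RNA came from endothelial cells of the mouse cerebellum on postnatal day 16, captured on beads coated with an antibody against PECAM, an endothelial surface protein. The 3 preparations labelled Fz4-/- came from mice that lack Frizzled4, the receptor encoded by Fzd4 through which Norrin activates canonical Wnt signalling in endothelial cells, and the 3 others were wild type. Both groups shared the C57Bl6/129 mixed background and were of mixed gender. The labels name no Cre driver or conditional allele and do not say whether a preparation was 1 animal or a pool, so the tests measure the spread between these preparations. The comparison asks what the lasting loss of Frizzled4 does to the transcriptome of these vessels.

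In heart, muscle and fat, capillaries take up fatty acids from circulating lipoproteins. Lipoprotein lipase (Lpl), made by parenchymal cells, is carried across the endothelium and held on its luminal face by Gpihbp1, where it splits triglycerides. Cd36 takes up the released fatty acids, and the fatty acid binding proteins Fabp4 and Fabp5 carry them in the cytoplasm. Brain capillaries depend little on this route and import lipid through the barrier transporter Mfsd2a. Cd300lg is a mucin-like glycoprotein of capillary endothelium that binds lipids. Plpp1, Plpp2 and Plpp3 are membrane phosphatases that remove the phosphate from signalling lipids such as lysophosphatidic acid and sphingosine 1-phosphate.

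All levels are log2 RMA expression, on which a step of 1 is a doubling, and differences are Fz4-null minus wild type. Array medians lay between 5.52 and 5.58 and lower quartiles between 3.46 and 3.64. These serve as guides to dim signal, since no detection calls were used here. The name of the group does not mark genes absent from these preparations. At their brightest probe sets, wild-type means were 10.50 for Fabp5, 10.45 for Plpp1, 10.04 for Lpl and 9.86 for Plpp3, well above the medians. Cd300lg, at 4.27, was below them. Fzd4 itself averaged 10.63 ± 0.37 (SD, n = 3) in the wild-type group against 3.69 ± 0.56 in the Fz4-null group at its brightest probe set, and was lower in all 3 null arrays. The mean of 14 measured pan-endothelial markers was high on all arrays, between 11.29 and 11.46 in wild type against 11.58 to 11.68 in the null arrays. Null replicate 1 stood apart, with the microglia and macrophage marker list at 5.48 against 8.14 to 8.31 on the other arrays, and choroid plexus epithelium markers separated the genotypes. The 10 measured choroid plexus genes averaged 5.88, 5.77 and 8.11 on wild-type replicates 1 to 3 against 4.82, 5.22 and 5.06 on null replicates 1 to 3. All 10 were lower on average in the null arrays (8860 of all 18193 genes were), and 7 were lower without overlap (901 of all genes). The part of these cells in the members' values was not tested.

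Of the 9 genes, read at their brightest probe sets, 7 were higher on average in the null arrays (9333 of all 18193 genes were), and Fabp5 and Lpl were lower. In 5 of them (Fabp4, Gpihbp1, Cd300lg, Plpp1 and Plpp3) all 3 null arrays lay above all 3 wild-type arrays, a pattern that 4.59% of all genes showed. An unadjusted limma p under 0.05 was reached by 6 genes, all higher in the null arrays (these 5 and Cd36), where 2.34% of all genes were higher by that rule. After Benjamini-Hochberg adjustment over all probe sets, 0 of the 9 passed 0.05 in limma, as against 0.022% of all genes, and the unmoderated statistic also called 0 of them, with 5 at an unadjusted p under 0.05 (4.9% of all genes by that statistic). With the replicate number as a block 0 passed, and 5 had an unadjusted limma p under 0.05 and were higher (4.56% of all genes). The smallest adjusted p among the members was 0.436, for Plpp3. The median difference over the 9 genes was 1.21, beside 0.008 over all genes.

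**Figure D1:**
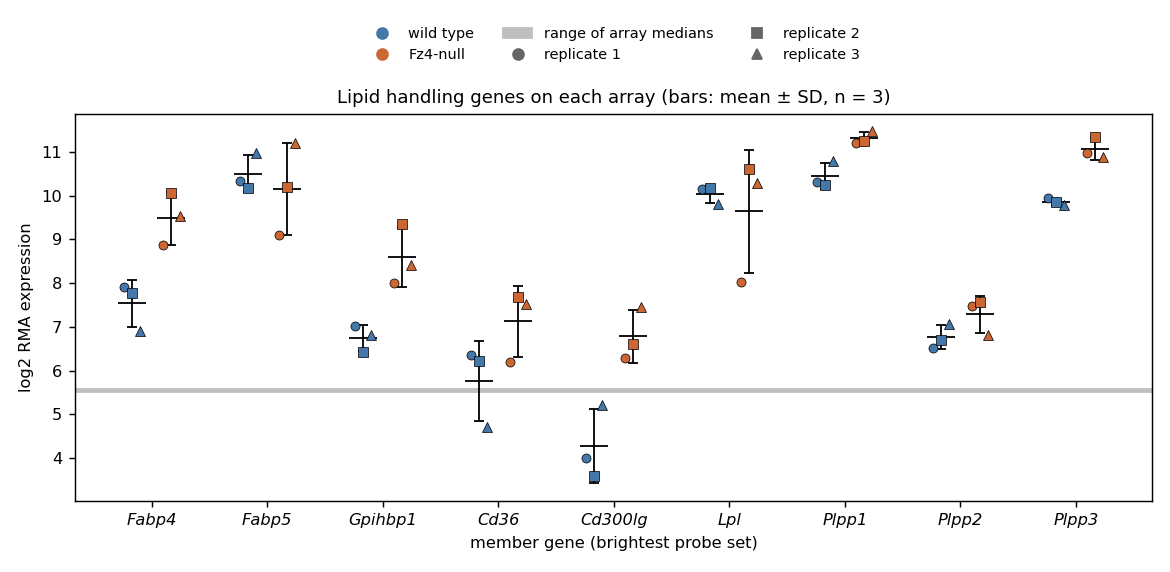
Log2 RMA expression (vertical axis) of each member gene at its brightest probe set on the 3 wild-type and 3 Fz4-null arrays, with black bars for the mean ± SD and a grey band for the range of array medians. The null points lie wholly above the wild-type points for Fabp4, Gpihbp1, Cd300lg, Plpp1 and Plpp3, and null replicate 1 is the low point of Fabp5 and Lpl.

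Gpihbp1, the endothelial anchor of lipoprotein lipase (gene ID 68453, GRCm38.p6 chromosome 15, 75596630 to 75598213), was read by 1 probe set. It measured 7.01, 6.42 and 6.81 on wild-type replicates 1 to 3 and 8.01, 9.34 and 8.41 on null replicates 1 to 3. Every null array was higher than every wild-type array, with null replicate 2 the highest. The group means were 6.75 ± 0.30 and 8.59 ± 0.68 (SD, n = 3), a 3.57-fold higher level in the null arrays (log2 difference 1.84, SE 0.36, limma adjusted p = 0.571).

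Lpl, the enzyme that Gpihbp1 holds (chromosome 8, 68880555 to 68906932), did not show that difference. Its brighter probe set read 10.15, 10.18 and 9.80 on wild-type replicates 1 to 3 and 8.03, 10.60 and 10.28 on null replicates 1 to 3. Null replicate 1 was the lowest of the 6 arrays, and the other null arrays were the highest. The difference was -0.40 (SE 0.64, limma adjusted p = 1.000), with a 95% interval from -1.94 to 1.13. The dimmer probe set behaved alike, with 6.30 on null replicate 1 against 7.40 to 8.01 on the other arrays, and differed by -0.06. Without null replicate 1 the brighter probe set of the null arrays averaged 0.40 above wild type (limma adjusted p = 1.000).

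Lpl is also expressed by cells outside the endothelium, and null replicate 1 was low in markers of several of them. Against the wild-type mean it lay at -2.71 for the 12 microglia and macrophage genes, -1.88 for the 10 astrocyte and Bergmann glia genes and -2.61 for the 10 fibroblast and meningeal genes. The pericyte and smooth muscle list lay at -1.31 on that array. For the 10 neuronal genes it lay at -0.76, where wild-type replicate 1 was already at -0.49. On null replicates 2 and 3 the microglia and macrophage list lay at 0.12 and 0.002, and the astrocyte list at 0.24 and -0.003. Whether these cells account for the low Lpl reading on that array was not tested. In bulk preparations such as these, fewer cells of a type and less RNA per cell cannot be told apart.

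Cd36, the fatty acid receptor (chromosome 5, 17781690 to 17888959), read higher in the null arrays on average, but its groups overlapped. The brightest of its 3 probe sets measured 6.35, 6.21 and 4.71 on wild-type replicates 1 to 3 and 6.18, 7.67 and 7.51 on null replicates 1 to 3. Null replicates 2 and 3 lay above all wild-type arrays, while null replicate 1 lay below wild-type replicates 1 and 2, and wild-type replicate 3 was the lowest. The difference was 1.37 (SE 0.56, limma adjusted p = 1.000), and by replicate number it was -0.17, 1.46 and 2.80.

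The second Cd36 probe set followed nearly the same order of arrays, with a difference of 1.56 (SE 0.61). The third did not. It read highest on null replicate 1, at 6.62, and differed by 0.31 (SE 0.28). The Cd36 value leaned on single arrays, being 0.84 without wild-type replicate 3, 0.65 without both arrays numbered 3 and 1.83 without null replicate 1. Its unadjusted p was under 0.05 in 8 of 18 alternatives. It was not under 0.05 with quantile or cyclic loess normalization, array weights, the unmoderated statistic or the replicate number as a block. Nor was it without any one of null replicates 2 and 3 and wild-type replicates 2 and 3, or without both arrays numbered 3. Platelets and macrophages express Cd36 too, and their marker lists were read beside it. The 7 measured platelet genes averaged 5.38 to 5.5 in wild type against 4.66 to 5.12 in the null arrays. The 12 microglia and macrophage genes averaged 8.14, 8.27 and 8.15 on wild-type replicates 1 to 3. On null replicates 1 to 3 they averaged 5.48, 8.31 and 8.19. This list and the brightest Cd36 probe set were both highest on null replicate 2. The list was lowest on null replicate 1, whereas that Cd36 probe set was lowest on wild-type replicate 3. The part of macrophages in the Cd36 values was not tested.

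Promoter windows of the reference (250 bases before to 50 after an annotated start, RefSeq, GRCm38.p6) were at hand for 3 of the 9 genes, Cd36, Plpp2 and Plpp3. The windows of Cd36 (chr5:17835847-17836146, minus strand) and Plpp3 (chr4:105157097-105157396, plus strand), both genes with an unadjusted p under 0.05, are shown 5′ to 3′. Capitals mark ACAAT, the core of sites bound by Sox factors, searched on both strands.
Cd36: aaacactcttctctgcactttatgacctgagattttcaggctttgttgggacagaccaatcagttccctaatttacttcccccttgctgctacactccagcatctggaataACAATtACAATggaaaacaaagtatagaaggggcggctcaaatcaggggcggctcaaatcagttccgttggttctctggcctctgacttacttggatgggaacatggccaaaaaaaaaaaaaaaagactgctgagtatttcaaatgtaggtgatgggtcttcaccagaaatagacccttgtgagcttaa
Plpp3: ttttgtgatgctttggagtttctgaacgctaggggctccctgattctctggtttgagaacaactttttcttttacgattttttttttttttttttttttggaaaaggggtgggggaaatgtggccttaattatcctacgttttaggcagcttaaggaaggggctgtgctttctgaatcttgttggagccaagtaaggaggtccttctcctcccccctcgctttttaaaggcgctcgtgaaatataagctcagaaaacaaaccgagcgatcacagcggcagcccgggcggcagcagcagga
The Cd36 window lies inside the span of the gene (17781690 to 17888959), so it surrounds an internal annotated start and not the outermost one. It held ACAAT at 2 places, which start 139 and 133 bases before that internal start and do not overlap. The Plpp2 and Plpp3 windows held none. Of all 32851 windows, 31% held at least 1. TCAAAG, the core of Tcf/Lef sites, was in 16% of all windows and in none of the 3 members' windows. The direct repeat bound by PPAR dimers was in 0.0396% of all windows and likewise in none of the 3. These are matches of letters in a short window and show neither binding nor its lack.

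The fatty acid binding proteins Fabp4 and Fabp5, whose genes lie close together on chromosome 3, read differently. Fabp4 (10204342 to 10208616) was measured by 4 probe sets. The brightest read 7.92, 7.77 and 6.91 on wild-type replicates 1 to 3 and 8.86, 10.06 and 9.53 on null replicates 1 to 3. All null arrays lay above all wild-type arrays, with the highest value on null replicate 2 and the lowest on wild-type replicate 3. Means were 7.53 ± 0.55 and 9.48 ± 0.60 (SD, n = 3), a 3.86-fold higher level in the null arrays (log2 difference 1.95, SE 0.39, limma adjusted p = 0.571).

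The second Fabp4 probe set gave the same order, with 7.52, 7.41 and 6.02 in wild type against 8.53, 9.79 and 9.03 in the null arrays, and a difference of 2.13 (SE 0.49, limma adjusted p = 0.755). Both of these can read several transcripts by their design suffix (_a_at). The same holds for the brighter Fabp5, the second Cd36 and the dimmer Lpl probe set (_a_at), and the second Plpp1 probe set (_s_at). The other 2 Fabp4 probe sets lay below the lower quartile on all 6 arrays, at wild-type means of 3.38 and 2.57, and differed by -0.12 and 0.08, so they are not shown to be above background. With the mean of all 4 probe sets, which weights the dim ones equally, the Fabp4 difference was 1.01.

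Fabp5 (10012585 to 10016610), the form shared by brain capillaries, glia and other tissues, was not higher in the null arrays on average. Its brighter probe set read 10.33, 10.18 and 10.98 on wild-type replicates 1 to 3 and 9.09, 10.19 and 11.19 on null replicates 1 to 3. The null arrays held both the lowest and the highest value, so the groups overlapped throughout. The difference was -0.34 (SE 0.52, limma adjusted p = 1.000, 95% interval -1.59 to 0.91), and the dimmer probe set gave -0.29. Without null replicate 1, the array low in glial and macrophage markers, it was 0.19, and whether those cells set the Fabp5 reading was not tested.

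Adipocytes are the best known source of Fabp4, Cd36 and Lpl together, and their part in the members' values was not tested. The 5 measured adipocyte markers lay below the array median on all 6 arrays, with means of 3.66 to 3.82 in wild type and 3.74 to 3.89 in the null arrays. The adipokine gene Adipoq averaged 3.35 ± 0.70 and 3.96 ± 0.30 (SD, n = 3; limma adjusted p = 1.000), and Lep was below the lower quartile on all arrays.

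Cd300lg (chromosome 11, 102041511 to 102055617) showed the widest difference of the 9 genes. Its probe set read 4.0, 3.59 and 5.21 on wild-type replicates 1 to 3, all below the array medians and the second below its lower quartile, and 6.28, 6.62 and 7.46 on null replicates 1 to 3, all above them. The groups did not overlap, and within each genotype the array numbered 3 was the highest. Means were 4.27 ± 0.84 and 6.78 ± 0.61 (SD, n = 3), a 5.73-fold higher level in the null arrays (log2 difference 2.52, SE 0.48, limma adjusted p = 0.571). By replicate number it differed by 2.28, 3.03 and 2.25, and with that number as a block the limma adjusted p was 0.314. RMA compresses differences near background, so the fold may be understated from the wild-type side.

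The lipid phosphate phosphatases Plpp1 and Plpp3 read higher in the null arrays by smaller amounts. Plpp3 (chromosome 4, 105157347 to 105232767) measured 9.94, 9.85 and 9.79 on wild-type replicates 1 to 3 and 10.97, 11.35 and 10.88 on null replicates 1 to 3. The groups were far apart relative to the spread within either, and the wild-type arrays lay close together. Means were 9.86 ± 0.07 and 11.07 ± 0.25 (SD, n = 3), a 2.31-fold higher level in the null arrays (log2 difference 1.21, SE 0.19, limma adjusted p = 0.436). The dimmer probe set, at 6.80, 7.04 and 7.41 in wild type against 7.76, 8.78 and 8.58 in the null arrays, differed by 1.29 (SE 0.32, limma adjusted p = 0.811).

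Plpp1 (chromosome 13, 112800777 to 112867894) measured 10.31, 10.25 and 10.79 on wild-type replicates 1 to 3 and 11.20, 11.25 and 11.47 on null replicates 1 to 3. Again all null arrays were above all wild-type arrays, and the number 3 arrays were the highest of each genotype. The level was 1.81-fold higher in the null arrays (log2 difference 0.86, SE 0.21, limma adjusted p = 0.833). The second probe set differed by 0.85 (SE 0.24), while the third lay below the lower quartile on all 6 arrays and differed by 0.05.

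Plpp2 (chromosome 10, 79526424 to 79533787), the third phosphatase of the family, did not separate the groups. It measured 6.52, 6.71 and 7.07 on wild-type replicates 1 to 3 and 7.47, 7.58 and 6.81 on null replicates 1 to 3. Null replicates 1 and 2 were above all wild-type arrays, and null replicate 3 lay between wild-type values. The difference was 0.52 (SE 0.27, limma adjusted p = 1.000, 95% interval -0.13 to 1.16), and its dimmer probe set gave 0.06. Without null replicate 3 the brighter probe set read 0.76.

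Pan-endothelial and glial markers were set beside the phosphatases, since Plpp3 is also an astrocyte gene. Relative to wild type, null replicates 1 to 3 were 0.32, 0.23 and 0.22 higher in the pan-endothelial list and 0.75, 0.80 and 1.02 higher in Plpp1. For Plpp3 they were 1.11, 1.49 and 1.02 higher. The astrocyte and Bergmann glia list lay at -1.88, 0.24 and -0.003 on the same arrays. Without null replicate 1 the differences were 1.26 for Plpp3 and 0.91 for Plpp1. The part of endothelial purity in the Plpp1 and Plpp3 values was not tested, nor was the part of astrocytes in the Plpp3 values.

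**Figure D2:**
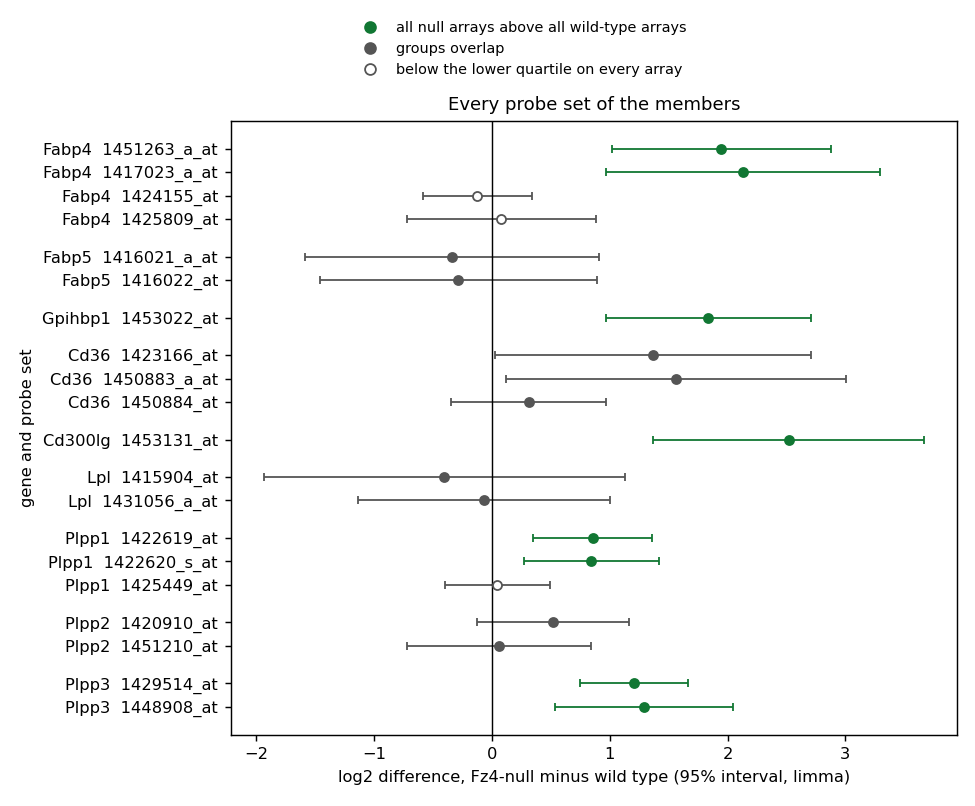
Log2 difference (horizontal axis, points) with its 95% interval from limma for all 20 probe sets of the 9 genes, green where every null array exceeds every wild-type array and open where the probe set is below the lower quartile on all arrays. Paired bright probe sets of Fabp4, Plpp1 and Plpp3 lie close together, and the open points of Fabp4 and Plpp1 lie near 0.

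Probe sets of a gene share its RNA and are not replicates, but they differ in the part of the transcript read. Of the 7 genes with more than 1 probe set, Fabp5 and Lpl had all at or below -0.06, and Cd36, Plpp1, Plpp2 and Plpp3 had all above 0. Fabp4 was mixed only through a probe set below the lower quartile. Both probe sets of Plpp3 separated the groups, as did 2 of 3 for Plpp1, 2 of 4 for Fabp4 and 0 of 3 for Cd36. Over all probe sets, 1838 of 45037 had every null array above every wild-type array. Gpihbp1 and Cd300lg rest on 1 probe set each.

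**Figure D3:**
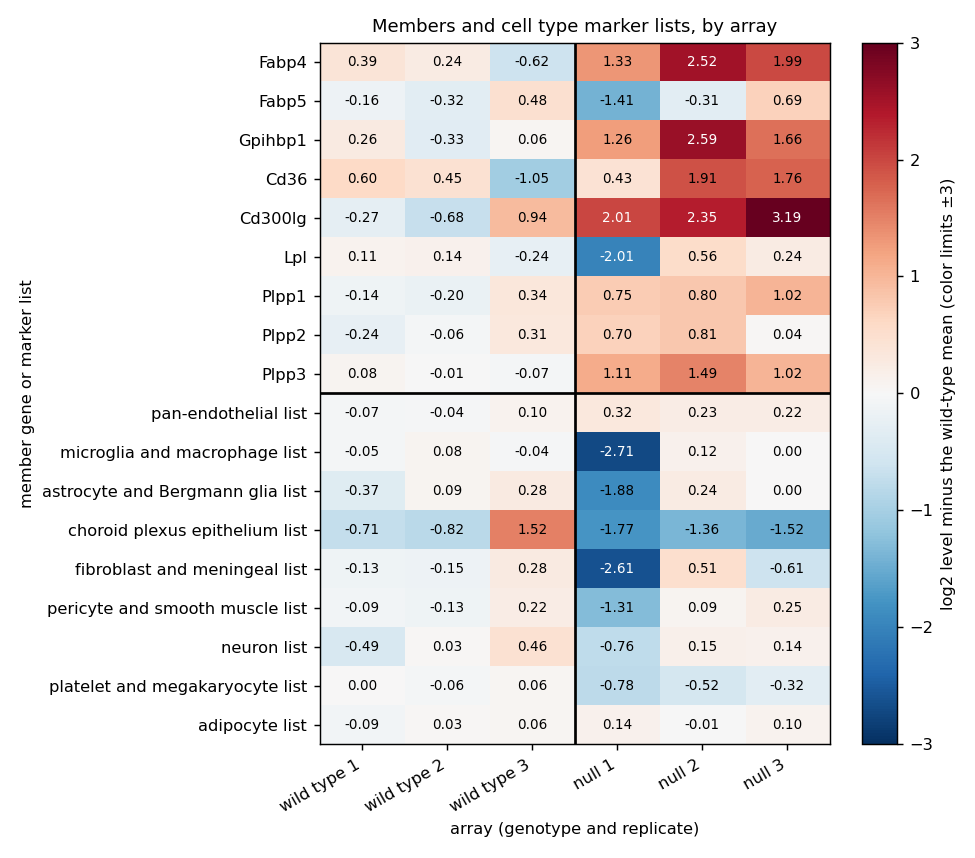
Log2 level minus the wild-type mean (color and printed number) for the 9 members above the line and for the mean of each cell type marker list below it, by array. Null replicate 1 is low in the microglia, astrocyte, fibroblast and pericyte lists and in Lpl and Fabp5, while Fabp4, Gpihbp1, Cd300lg, Plpp1 and Plpp3 are above the wild-type mean on all 3 null arrays.

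Other genes of lipid handling were taken from 4 lists. Over these lists, with 91 measured genes in all, 0 passed the adjusted limma threshold of 0.05, and at an unadjusted limma p under 0.05 there were 6 higher and 1 lower in the null arrays (over all genes, 2.34% were higher and 2.26% lower). The unmoderated statistic gave 13 of the 91 at an unadjusted p under 0.05, where 4.9% of all genes were under it. The median difference of the 91 was -0.04.

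The other fatty acid binding and uptake genes had a median of -0.11 over 20 measured genes, 0 of them at an unadjusted p under 0.05. Fabp3, the heart-type binding protein, had the lowest p. It read 7.30, 7.27 and 8.63 on wild-type replicates 1 to 3 and 5.93, 7.13 and 6.83 on null replicates 1 to 3, so all null arrays were lower (difference -1.11, SE 0.47, limma adjusted p = 1.000). Mfsd2a, the lipid transporter of the barrier, averaged 12.19 ± 0.44 in the wild-type group against 11.85 ± 0.48 in the Fz4-null group (SD, n = 3; difference -0.33, limma adjusted p = 1.000).

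Among 19 lipoprotein lipolysis and receptor genes the median difference was 0.02. Pcsk6, a proprotein convertase, had the lowest p, with 6.03, 5.62 and 6.14 in wild type against 7.21, 6.85 and 7.61 in the null arrays (difference 1.30, SE 0.26, limma adjusted p = 0.571). Lipg, the endothelial lipase that acts on lipoprotein phospholipids, was singled out after its values were seen. It read 8.83, 9.30 and 8.49 in wild type against 6.93, 7.92 and 6.0 in the null arrays, all of which were lower (difference -1.92, SE 0.49, limma adjusted p = 0.850). Angptl4, an inhibitor of lipoprotein lipase, differed by 0.09, and the lipoprotein receptor Scarb1 by 0.33.

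Of 26 genes of lipid phosphate metabolism and its receptors, with a median of -0.06, the lysophosphatidic acid receptor Lpar6 had the lowest p. It read 10.70, 10.51 and 10.78 in wild type against 11.02, 11.10 and 11.19 in the null arrays, without overlap (difference 0.44, SE 0.17, limma adjusted p = 1.000). The main endothelial receptor for sphingosine 1-phosphate, S1pr1, differed by 0.25.

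Transcription factors and targets of capillary fatty acid uptake, 26 genes, had a median of -0.02. Meox2, a homeobox factor that forms a dimer with Tcf15 in heart capillaries, had the lowest p. It read 3.30, 3.68 and 3.43 in wild type, near the lower quartiles, and 4.97, 4.38 and 4.64 in the null arrays, still below the array medians (difference 1.19, SE 0.22, limma adjusted p = 0.528). The Meox2 probe set can read several transcripts by its suffix (_s_at). Tcf15, the partner of Meox2, differed by -0.02. Cdh13, a cadherin that binds adiponectin, was picked out after its values were seen and read 6.80, 6.65 and 7.95 in wild type against 9.75, 8.39 and 10.36 in the null arrays (difference 2.37, SE 0.57, limma adjusted p = 0.798). Pparg, a nuclear receptor that drives Fabp4 and Cd36 in adipocytes, differed by 0.48, with the null arrays all above the wild-type arrays. The fatty acid oxidation and storage genes Cpt1a (-0.10), Pdk4 (-0.07) and Plin2 (0.09) differed little.

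**Figure D4:**
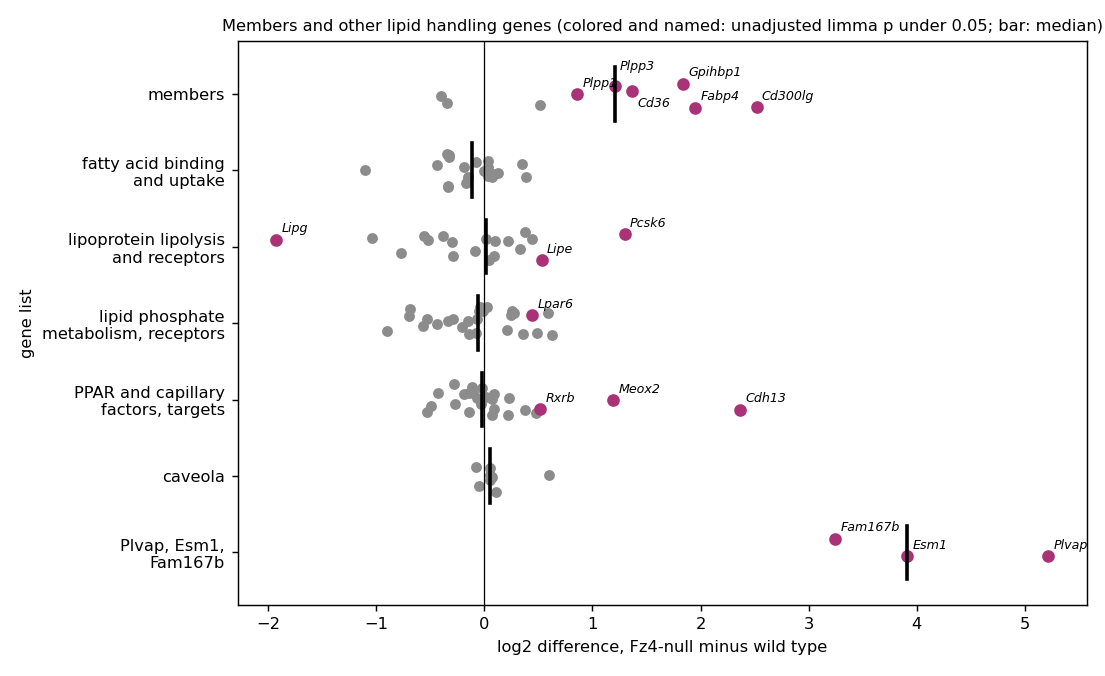
Log2 difference (horizontal axis, one point per gene) for the members, for 4 lists of other lipid handling genes, and for the caveola and Plvap, Esm1 and Fam167b genes, with a bar at each list's median. Most points of the other lists lie near 0, with Lipg at -1.92 and Cdh13 at 2.37 as the outermost.

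Beside these stand other sets of endothelial genes. Plvap, the protein of fenestral diaphragms, differed by 5.21 (SE 0.60, limma adjusted p = 0.126), and Esm1 and Fam167b rose by 3.91 and 3.25 (limma adjusted p = 0.0189 for both). With the replicate number as a block neither passed (limma adjusted p = 0.127 for Esm1 and 0.247 for Fam167b). Null replicates 1 to 3 exceeded wild type by 4.19, 4.23 and 3.95 in the mean of these 3 genes, and by 0.46, 1.41 and 1.29 in the mean of the 9 lipid handling genes, with null replicate 1 lowest. On that array Lpl lay at -2.01 and Fabp5 at -1.41 against the wild-type mean, and the other members from 0.43 (Cd36) to 2.01 (Cd300lg). Among the null arrays, Fabp4, Gpihbp1, Cd36, Cd300lg and Plpp1 were also lowest there. The 8 measured caveola genes, which shape the membrane pits where Cd36 is often found, had a median of 0.05, with Cav1 at 0.07, and 0 at an unadjusted limma p under 0.05. The difference between the lists was not tested.

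The genes closest to 4 of the members across the 6 arrays were found by the root mean square difference of mean-centred log2 values, outside the 9 members. For Gpihbp1 they were Wipf3 (0.19), Csf2rb2 (0.24) and Igf1 (0.26), where Gpihbp1 itself spanned 2.92 across the arrays. For Fabp4, which spanned 3.15, they were Csf2rb2 (0.29), Pcdh17 (0.39) and Eya1 (0.39). For Cd300lg, which spanned 3.87, they were Tgfbi (0.26), Enpp3 (0.45) and Cmah (0.48). For Cd36, which spanned 2.96, the nearest were 1700019M22Rik (0.41), Adamts18 (0.41) and Nkx2-2 (0.42). The genotype difference was 1.49 or more in each gene near Gpihbp1, Fabp4 or Cd300lg. It was 0.62 to 0.82 in those near Cd36, which like Cd36 were lowest on wild-type replicate 3. The search used these same 6 values, so a like difference and a like order of arrays follow from it and are no separate result.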

How the data were processed

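The authors deposited log2 values made with RMA, as the submitters' processing notes name it, a method that corrects background, normalizes arrays and summarises probe sets. Its version is not stated. Of 45101 probe sets, 64 controls were left out. Names came from the platform annotation (34945 probe sets with 1 symbol, 932 with several, 9160 with none). For each gene the brightest probe set by its 6-array mean was used. The test was limma (version 3.58.1, R version 4.3.3), with lmFit and eBayes and no covariate (two-sided, Benjamini-Hochberg over 45037 probe sets at 0.05), checked on simulated data. Arrays have no sequencing depth, and their number limits precision. The members and lists were chosen with earlier results of these data known. Named genes are all members, Fzd4, the comparison genes, the 1 with the lowest p in each pathway list (up to 3 where any passed), and the 3 nearest to 4 members; others are said to be chosen after their values were seen, or are given as members of a fixed list for their role.

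The labels number replicates 1 to 3 in both genotypes. Deviations from group means correlated at 0.244, 0.303 and 0.574 between same-numbered arrays, all over the minimum of 0.1 set for pairing, though unlike numbers reached 0.262. The replicate block was fitted as an alternative. Other alternatives were 3 normalizations, filters on dim probe sets, other variance models, other probe set choices, arrays left out and other thresholds.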

Additional observations from a re-analysis of the deposited data

How the results depend on the processing

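In all 21 alternatives 0 of the members that were read and 0 of the other lipid handling genes passed the adjusted threshold in limma or the unmoderated statistic. Cd300lg was not read with either filter on dim probe sets, nor Cd36 with the filter at log2 of 100. An unadjusted p under 0.05 was reached by 4 to 6 members, each of them higher in the null arrays. Over all genes and both directions, the number under 0.05 was 837 as analysed. It ran from 387 with only probe sets above log2 of 100, where fewer genes were read, to 1617 with the replicate block. Cd36 was under 0.05 in 8 of 18 alternatives and Plpp2 in 3 of 19. The replicate block changed no call of a member at the adjusted threshold, and with it 5 members and no longer Cd36 had an unadjusted p under 0.05. The members' median difference was 0.86 with only probe sets above log2 of 100, where 7 members were left, and 0.86 without probe sets that can read several transcripts, where Fabp4 was read from a dim probe set at -0.12. Leaving out 1 array gave medians of 1.03 to 1.26, Fabp5 between -0.86 and 0.19 and Lpl between -0.88 and 0.40, the positive values being those without null replicate 1. Fabp5 and Lpl turned to 0.43 and 0.28 without both null replicate 1 and wild-type replicate 3, a choice made after seeing the data. Gpihbp1, Cd300lg, Plpp1 and Plpp3 were higher in the null arrays in every alternative that kept them, with differences of 1.46 to 2.16, 2.18 to 3.24, 0.58 to 1.08 and 1.06 to 1.30. Cd36 ranged from 0.65 (without both arrays numbered 3) to 1.83.

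Over all genes, 4 passed as analysed, 12 with array weights, 11 with probe sets averaged per gene, 1 at an adjusted p of 0.01, and 0 with the replicate block, the unmoderated statistic, without both arrays numbered 3 or without both null replicate 1 and wild-type replicate 3. Leaving out 1 array gave 0 to 2. Gene differences near background may be understated, and 3 of the members' probe sets lay below the lower quartile on all arrays.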
